A study of Mus musculus with 10 samples.

Results

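The interferon regulatory factors (IRFs) are described here in Hepa1-6 cells, a mouse hepatoma line, after contact with activated CD8+ T cells. Members were the genes of the deposited table that carry the symbols Irf1, Irf2, Irf3, Irf4, Irf5, Irf7, Irf8 and Irf9, which are 8 of its 34745 genes. They were measured in 5 RNA sequencing libraries of wild-type (WT) Hepa1-6 cells co-cultured for 48 h with CD8+ T cells, a treatment the labels call CTL attack. These were set against 5 libraries of WT Hepa1-6 cells with no treatment. The T cells came from spleens of male C57/BL6 mice aged 6 to 8 weeks and had been activated for 5 days with anti-CD3 and anti-CD28 antibody at a dilution of 1 in 2000. All libraries therefore come from 1 cell line, and no source used here says whether libraries of a group came from separate cultures, so every p-value reflects library-to-library spread alone, which may be technical.

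IRFs bind DNA elements built from repeats of GAAA. Irf3 and Irf7 are the factors that viral RNA and DNA sensors activate through phosphorylation, and they switch on the type I interferon genes. Irf9 works with Stat2 in ISGF3, the complex that type I interferon activates and that binds the interferon-stimulated response element (ISRE) of its target genes, among them Irf7 itself. Irf1 is an activator induced by interferon gamma through GAS elements, and Irf2 binds the same sites as Irf1 and often represses them. Irf5 acts downstream of Toll-like receptors, mostly in macrophages. Irf4 and Irf8 are best known from lymphocytes and myeloid cells, where they bind together with Spi1 (PU.1) or Spib.

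Upstream sequences are shown for 4 members: Irf7, the member that differed most between the groups, and Irf1, Irf2 and Irf8, the members with a match to an ISRE or GAS element in their promoter window. They are RefSeq sequences of build GRCm38.p6, written 5' to 3' on the gene's strand, and end at the base before the deposited gene start. Coordinates are chr7:141266482-141266674 (minus strand) for Irf7, chr11:53769764-53770013 (plus strand) for Irf1, chr8:46739495-46739744 (plus strand) for Irf2 and chr8:120736108-120736357 (plus strand) for Irf8. Capitals mark matches to an ISRE, taken as GAAA, 2 bases of any kind and GAAA again, or the GAS letters TTCNNNGAA.

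Irf7: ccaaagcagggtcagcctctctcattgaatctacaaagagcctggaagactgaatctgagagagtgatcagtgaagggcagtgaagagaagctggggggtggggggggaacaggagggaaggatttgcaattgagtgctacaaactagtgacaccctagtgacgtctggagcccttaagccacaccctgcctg

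Irf1: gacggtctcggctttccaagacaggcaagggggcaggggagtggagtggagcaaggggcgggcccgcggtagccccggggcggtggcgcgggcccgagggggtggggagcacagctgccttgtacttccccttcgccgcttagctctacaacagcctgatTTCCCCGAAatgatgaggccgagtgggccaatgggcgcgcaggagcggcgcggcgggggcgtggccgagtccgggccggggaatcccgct

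Irf2: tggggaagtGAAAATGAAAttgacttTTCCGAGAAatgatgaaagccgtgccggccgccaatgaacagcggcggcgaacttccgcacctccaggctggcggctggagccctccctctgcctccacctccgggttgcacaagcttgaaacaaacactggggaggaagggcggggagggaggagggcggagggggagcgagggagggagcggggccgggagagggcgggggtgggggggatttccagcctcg

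Irf8: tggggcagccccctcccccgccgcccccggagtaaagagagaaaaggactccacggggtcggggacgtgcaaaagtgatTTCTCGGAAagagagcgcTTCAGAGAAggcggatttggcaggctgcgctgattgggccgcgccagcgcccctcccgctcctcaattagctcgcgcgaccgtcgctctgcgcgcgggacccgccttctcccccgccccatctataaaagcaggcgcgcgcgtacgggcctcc

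The search covered both strands of the whole RefSeq window, 250 bases before to 50 bases after each annotated start, and all 8 members had at least 1 window. Irf2 held an ISRE match that began 241 bases before the start and a GAS match at 224 bases before it. Irf1 held a GAS match at 90 bases before its start, and Irf8 held 2, at 171 and 153 bases before its start. The NF-kappaB consensus, a motif that overlaps neither of the others, was also matched in Irf1 at 13 and in Irf2 at 17 bases before the start, in lower case above. In the windows of Irf3, Irf4, Irf5, Irf7 and Irf9 these patterns were not found. Every window of Irf9 lay inside its deposited locus, so no sequence before the deposited start of Irf9 was searched. Among 32851 mouse promoter windows, 3.44% held the ISRE pattern, 8.3% the GAS letters, which read the same on both strands, and 8.46% the NF-kappaB consensus. These matches describe letters and do not show binding.

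Library totals ran from 12922263 to 16500234 counts in co-cultured cells and from 13525697 to 17100662 counts in untreated cells. Levels are given as TMM-scaled CPM, counts divided by the scaled size of their library, and a gene was called changed when the edgeR quasi-likelihood test gave a Benjamini-Hochberg adjusted p below 0.05 over the 12666 genes tested. Checked against 13 hepatocyte and hepatoma markers, 5 were expressed highly enough to be tested, of which 0 rose and 2 fell. Over all tested genes 17.4% were called higher and 16.1% lower. The keratin Krt8 averaged 938 CPM in co-cultured cells and 1120 CPM in untreated cells (log2 fold change -0.25), and Afp, a fetal liver and hepatoma marker, averaged 15.5 CPM and 20.0 CPM in the same order (-0.36). Krt18 at 482 and 497 CPM, the liver transcription factor Foxa2 at 31.8 and 29.7 CPM and Foxa3 at 2.30 and 1.90 CPM, in co-cultured and in untreated cells, were not called. The other markers were at or near 0: Alb had 4 counts in all in co-cultured cells and 0 in untreated cells, Hnf4a had 1 and 0, and Serpina1a had 0 in all 10 libraries. The T cell markers Cd3e, Cd3d, Cd8a, Cd2 and Prf1 had 0 counts in all 10 libraries, and the 17 T cell markers summed to 1.6 to 2.27 CPM in co-cultured libraries and 0.602 to 2.06 CPM in untreated libraries. The summed level of 20 macrophage and myeloid markers was 115 to 134 CPM in co-cultured cells and 64.1 to 69.8 CPM in untreated cells, and no marker of the 20 was at 0 in all 10 libraries.

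Of the 8 IRF genes, 7 had enough counts to be tested, and 3 of these were called, against 33.5% of all tested genes. Irf7 and Irf9 fell (2 of 7 members, against 16.1% of tested genes called lower), Irf3 rose (1 of 7, against 17.4% called higher), and Irf1, Irf2, Irf5 and Irf8 were not called. Irf7 and Irf9 were also the members whose libraries did not overlap between the groups, with every co-cultured library below every untreated one, which held for 11.1% of tested genes. A count of 3 in 7 is near the share over all genes and is by itself no result about the family. In bulk RNA, fewer cells of a type and less RNA per cell cannot be told apart.

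**Figure D1:**
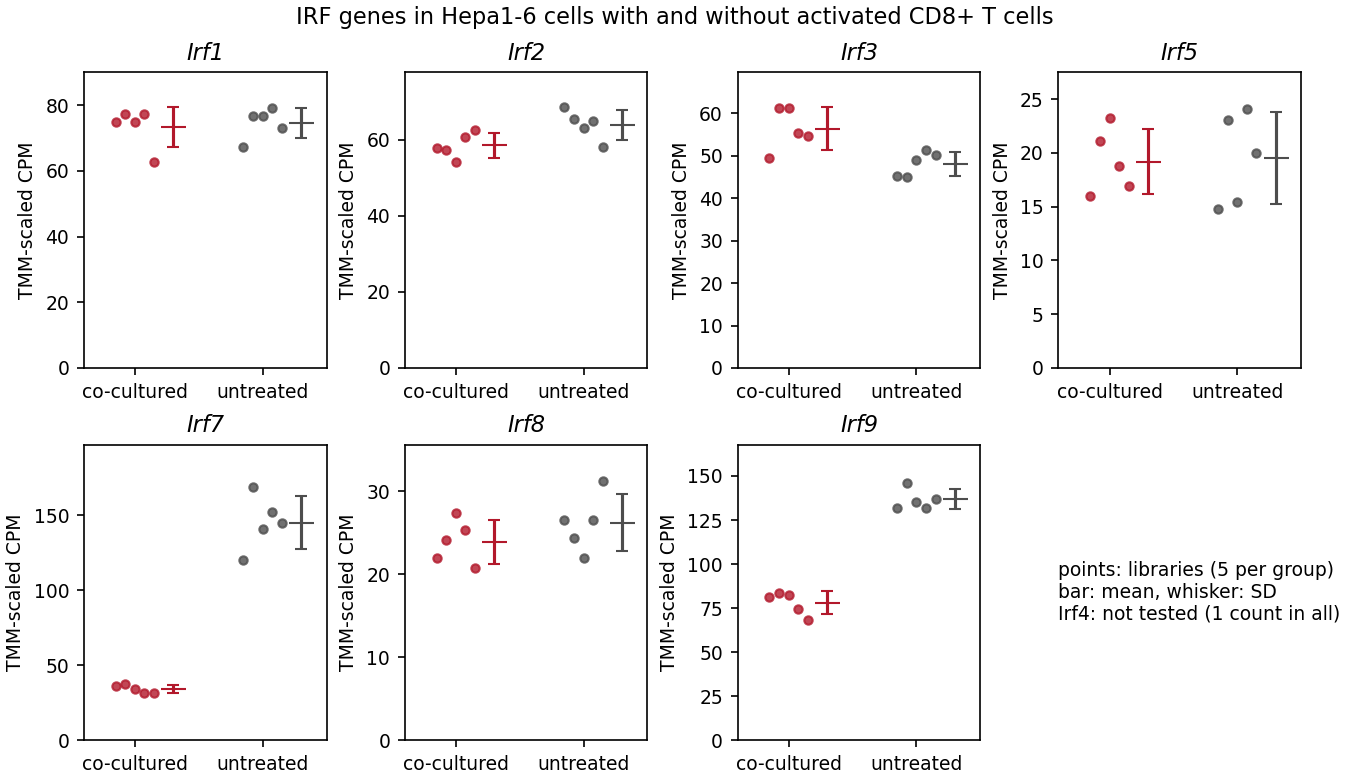
TMM-scaled CPM of the 7 tested IRF genes, 1 panel a gene with its own linear axis; points are libraries, with the 5 co-cultured libraries on the left and the 5 untreated on the right, and bars are the mean and SD. Irf7 lay between 31.2 and 37.1 CPM in co-cultured cells and between 120 and 169 CPM in untreated cells, whereas the libraries of Irf1, Irf2, Irf5 and Irf8 overlap.

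Irf7, the factor that amplifies the type I interferon response, lies at chr7:141262706-141266481 on the minus strand (mm10, as deposited; ENSMUSG00000025498). It had 36.1, 37.1, 33.8, 31.2 and 31.6 CPM in co-cultured replicates 1 to 5, against 120, 169, 141, 152 and 145 CPM in untreated replicates 1 to 5. The lowest untreated library was thus more than 3 times the highest co-cultured library, and the spread within each group was small beside that gap. Irf7 averaged 33.9 ± 2.63 CPM in co-cultured cells and 145 ± 17.9 CPM in untreated cells (SD, n = 5 each), a log2 fold change of -2.10 with an SE of 0.0864 (edgeR adjusted p = 4.39e-09). Its level in co-cultured cells was 23.4% of that in untreated cells. Only 29 of the 12666 tested genes had a lower log2 fold change.

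Irf9, the DNA-binding subunit of ISGF3, lies at chr14:55603571-55610030 on the plus strand. It had 81.5, 83.6, 82.2, 74.7 and 68.4 CPM in co-cultured replicates 1 to 5, against 132, 146, 135, 132 and 137 CPM in untreated replicates. The groups did not overlap here either, but the gap was narrower than for Irf7. Irf9 averaged 78.1 ± 6.44 CPM in co-cultured cells and 137 ± 5.77 CPM in untreated cells (SD, n = 5 each), a log2 fold change of -0.81 with an SE of 0.0593 (edgeR adjusted p = 4.62e-07), or 57.2% of the untreated level. Its locus shares 123 bases on the same strand with Rnf31, whose log2 fold change was -0.41 (adjusted p = 0.000313 in edgeR), and reads from the shared bases may have been split between them.

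Irf3, which is made constitutively and is activated by the kinase Tbk1, lies at chr7:44997648-45002847 on the plus strand. It had 49.4, 61.2, 61.4, 55.4 and 54.7 CPM in co-cultured replicates 1 to 5, against 45.2, 44.9, 49.0, 51.3 and 50.1 CPM in untreated replicates. In 4 co-cultured libraries Irf3 was above every untreated library, and replicate 1 lay within the untreated range. The log2 fold change was 0.23 with an SE of 0.0699 (edgeR adjusted p = 0.0218), and 2441 tested genes had a larger positive one. This call rests on single libraries: it was lost without untreated replicate 1 (edgeR adjusted p = 0.0573) or 2 (0.0501), and without co-cultured replicate 2 (0.0567) or 3 (0.0643), with log2 fold changes of 0.19 to 0.21 there.

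**Figure D2:**
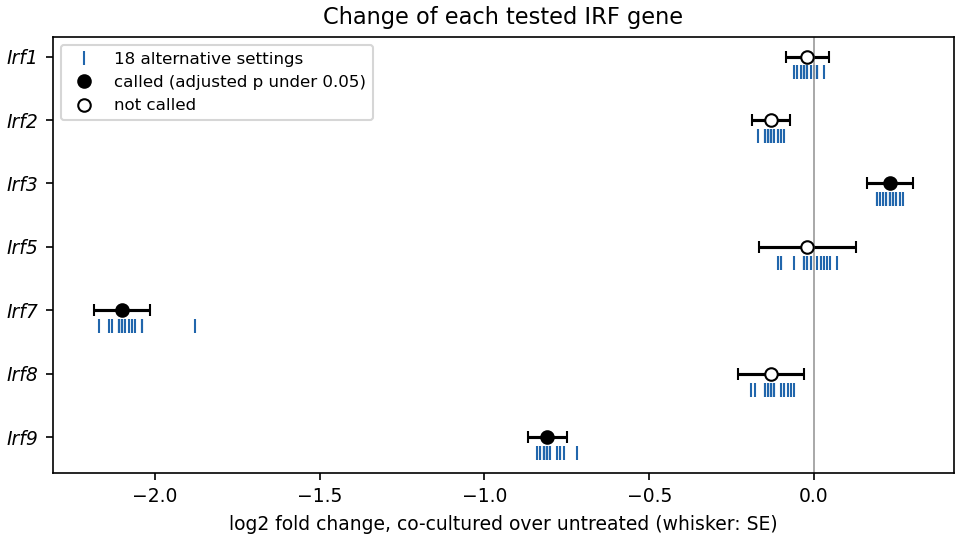
Log2 fold change, co-cultured over untreated, of the 7 tested IRF genes (circles; filled where called, whiskers are the SE), with the same value under 18 alternative settings as ticks below each circle. Irf7 stands at -2.10 and Irf9 at -0.81 with all their ticks on the same side of 0, and Irf3 at 0.23 is the called member nearest to 0.

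Irf1 and Irf2, the activator and repressor that share binding sites, were not called. Irf1 (chr11:53770014-53778374, plus strand) had 74.8, 77.4, 74.8, 77.4 and 62.8 CPM in co-cultured replicates 1 to 5, against 67.2, 76.6, 76.6, 79.3 and 73.0 CPM in untreated replicates. The ranges overlap almost fully, with co-cultured replicate 5 the lowest of all 10 libraries. Its log2 fold change was -0.02 with an SE of 0.0659 (edgeR adjusted p = 0.836), and the value lay between -0.06 and 0.03 under all 18 alternatives. Irf2 (chr8:46739745-46847458, plus strand) had 57.9, 57.3, 54.2, 60.7 and 62.5 CPM in co-cultured replicates and 68.7, 65.5, 63.0, 64.9 and 58.0 CPM in untreated replicates. Most co-cultured libraries were below the untreated ones, but untreated replicate 5 lay among them. The log2 fold change of Irf2 was -0.13 with an SE of 0.0582 (edgeR adjusted p = 0.106), and it was called without untreated replicate 5 (-0.17, adjusted p = 0.0343).

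Of the members best known from immune cells, Irf5 and Irf8 were detected in every library and Irf4 was at or near 0. Irf5 (chr6:29526625-29541871, plus strand) had 16.0 to 23.3 CPM in co-cultured libraries, with a median of 18.8, and 14.8 to 24.1 CPM in untreated libraries, with a median of 20.0. It was the most variable tested member, with a coefficient of variation of 15.6% in co-cultured cells and 22.0% in untreated cells, where the median tested gene had 9.42%. Its log2 fold change was -0.02 with an SE of 0.148 (edgeR adjusted p = 0.937). Irf8 (chr8:120736358-120756694, plus strand) had 22.0, 24.1, 27.4, 25.3 and 20.8 CPM in co-cultured replicates, against 26.6, 24.4, 22.0, 26.6 and 31.3 CPM in untreated replicates. The groups overlap, and the log2 fold change of Irf8 was -0.13 with an SE of 0.101 (edgeR adjusted p = 0.366). Irf4 (chr13:30749226-30766927, plus strand), known from plasma cells and activated lymphocytes, had 1 count in co-cultured replicate 4 and 0 in the other libraries. A count of 0 over a group allows up to 0.0405 CPM in co-cultured cells and 0.0388 CPM in untreated cells, so no fold is given for Irf4.

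Myeloid markers moved while Irf5 and Irf8, both expressed in macrophages, were not called. Of 20 macrophage and myeloid markers 14 were tested, 11 rose and 0 fell, with a median log2 fold change of 2.78 against 0.01 over all tested genes. Of all tested genes 17.4% rose and 16.1% fell. Enough counts in 1 group sufficed for a gene to be tested. Markers near 0 in untreated cells, such as Adgre1, Clec4n and Tyrobp, were thus tested through their co-cultured counts and could only be called higher. The split of calls and the median are therefore in part set by this filter. Lyz2, which encodes lysozyme, averaged 18.2 ± 2.15 CPM in co-cultured cells and 0.931 ± 0.25 CPM in untreated cells (SD, n = 5 each; log2 fold change 4.27, edgeR adjusted p = 1.6e-09). Adgre1 (F4/80) rose by 4.47 and Clec4n (dectin-2) by 6.51 on the log2 scale. Tyrobp, the adaptor of myeloid receptors, had 84 counts over the co-cultured libraries and 0 over the untreated ones, at least 29.3-fold higher against a floor of 3 counts over the group. Cd68 was not called, and Ptprc (CD45) had 40 counts in all in co-cultured cells and 6 in untreated cells. The part of such cells in the levels of Irf5, Irf8 or any other member was not tested.

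Among 17 partner and target genes of Irf4 and Irf8 in blood lineages, 10 were tested, of which 2 rose and 1 fell (median log2 fold change 0.12). These counts stand against 17.4% higher and 16.1% lower over all tested genes. Spib, an Ets factor that binds DNA with Irf4 or Irf8, averaged 6.25 ± 0.747 CPM in co-cultured cells and 3.37 ± 0.669 CPM in untreated cells (log2 fold change 0.88, edgeR adjusted p = 0.000413). Tcf3 (E2A) rose by 0.19 and Bcl6, a repressor of plasma cell genes, fell by 0.32 on the log2 scale. Spi1, the myeloid partner, had 40 counts in all in co-cultured cells and 2 in untreated cells, with 0.23 to 0.78 CPM in co-cultured libraries above 0 to 0.119 CPM in untreated libraries, and was too low to be tested. Of 9 B cell and plasma cell markers 2 were tested: Sdc1 (syndecan-1) rose by 0.28 and Blnk fell by 0.36 on the log2 scale, while Ms4a1 and Tnfrsf17 had 0 counts in all 10 libraries. Of the 17 T cell markers only Cd28 was tested, at 0.904 ± 0.403 CPM in co-cultured cells and 0.552 ± 0.389 CPM in untreated cells, and it was not called (edgeR adjusted p = 0.249).

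The make-up of the family therefore differed between the groups. The 8 IRF genes together had 344 ± 17.4 CPM in co-cultured cells and 514 ± 28.6 CPM in untreated cells (SD, n = 5 each), with no overlap between 318 to 362 CPM and 474 to 550 CPM. Irf7 supplied 9.88% ± 0.633 of these counts in co-cultured cells and 28.2% ± 1.97 in untreated cells. The share of Irf9 was 22.7% ± 1.08 in co-cultured cells and 26.6% ± 1.04 in untreated cells. These shares are of counts, and a longer transcript gives more of them.

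Levels of different members can be set side by side only per length. On the deposited FPKM scale (fragments divided by a gene length and by library size), co-cultured cells had Irf3 at 24.0 ± 1.93 and Irf2 at 23.8 ± 1.49, whose libraries overlap, followed by Irf1 at 12.9 ± 1.01 and Irf9 at 9.19 ± 0.686. Irf5 at 5.47 ± 0.817 and Irf7 at 5.34 ± 0.363 FPKM came next with overlapping libraries, and Irf8 at 2.79 ± 0.301 and Irf4 at 0.00288 were last (SD, n = 5). Untreated cells had Irf2 at 25.5 ± 1.74, Irf7 at 22.4 ± 2.71 and Irf3 at 20.0 ± 1.01 FPKM, each overlapping the next in that order. Below them lay Irf9 at 15.7 ± 0.72, Irf1 at 12.8 ± 0.719, Irf5 at 5.42 ± 1.17 and Irf8 at 2.98 ± 0.384 FPKM with no overlap between neighbours, and Irf4 at 0. By mean level Irf7 thus took place 6 of 8 in co-cultured cells and place 2 in untreated cells.

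This order depends on the gene length behind the FPKM. The length implied by the deposited counts and FPKM equalled, within 1 base, the sum of all distinct exons of the gene in GENCODE M21, with overlapping exons added repeatedly, for 6133 of 9368 genes (65.5%). It exceeded the span of the whole locus for 602 genes (6.43%). For Irf7 the implied length was 6421 bases on a locus of 3776 bases, and for Irf9 it was 8582 bases on 6460. Neither equalled its sum of distinct exons, which was 10234 bases for Irf7 and 9263 bases for Irf9. The origin of the deposited lengths of these 2 genes is therefore not known. Irf2 differed the other way, with 2484 bases against 7396 bases of merged exons. Fold changes of 1 gene between libraries are unaffected, because its length cancels.

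With lengths from GENCODE M21, Irf7 led the family in untreated cells. Per kilobase of merged exons, co-cultured cells had Irf1 at 18.5 ± 1.53, Irf3 at 16.4 ± 1.46, Irf9 at 14.5 ± 1.2 and Irf7 at 8.99 ± 0.696 CPM, and untreated cells had Irf7 at 38.5 ± 4.74, Irf9 at 25.4 ± 1.07, Irf1 at 18.8 ± 1.17 and Irf3 at 14.0 ± 0.839 CPM (SD, n = 5 each). In co-cultured cells Irf1, Irf3 and Irf9 each overlap the next in that order, and Irf7 lay below Irf9 in all 5 libraries. In untreated cells none of those 4 levels overlap. Per kilobase of the longest coding transcript, Irf7 took place 5 of 8 in co-cultured cells at 15.2 ± 1.17 CPM and place 1 in untreated cells at 65.0 ± 8.00 CPM. Irf4 was the lowest member on all 3 scales.

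**Figure D3:**
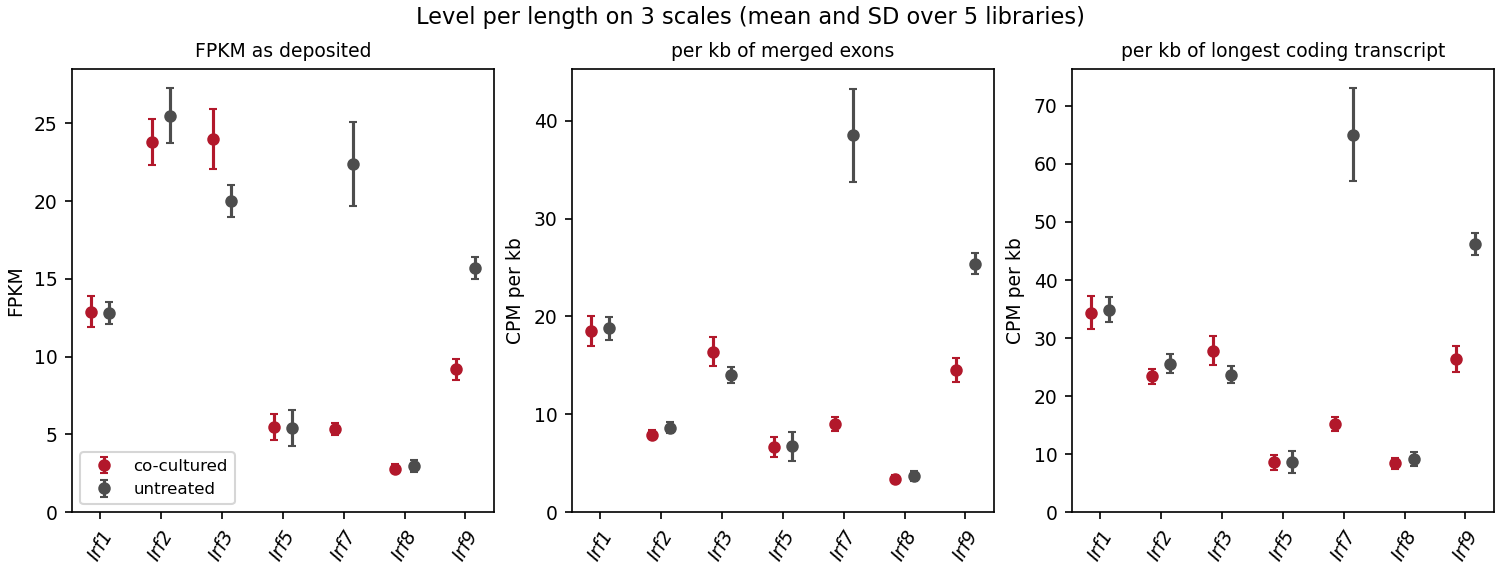
Level per length of the 7 tested IRF genes on 3 scales (deposited FPKM, CPM per kilobase of merged exons and CPM per kilobase of the longest coding transcript), with co-cultured libraries to the left of untreated ones; points are means and whiskers the SD over 5 libraries. Irf7 moves most between the groups on each scale, and on both GENCODE scales it is the highest member in untreated cells (38.5 and 65.0 CPM per kilobase).

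Ratios of members within a library compare their counts free of the scaling between libraries. The log2 ratio of Irf7 to Irf3, the inducible to the constitutive partner, was -0.45, -0.72, -0.86, -0.83 and -0.79 in co-cultured replicates 1 to 5 and 1.40, 1.91, 1.53, 1.57 and 1.53 in untreated replicates. Irf3 counts thus exceeded Irf7 counts in every co-cultured library, and the reverse held in every untreated library. The difference in means was -2.32, with p = 0.00794 by an exact two-sided permutation test, the smallest that 5 against 5 libraries can give, and 0.0119 after Benjamini-Hochberg adjustment over the 6 ratios tested. Irf7 to Irf9 averaged -1.2 ± 0.0688 in co-cultured cells and 0.08 ± 0.141 in untreated cells, and Irf7 to Irf1 averaged -1.11 ± 0.124 and 0.96 ± 0.119 in the same order (exact permutation p = 0.00794 for each, adjusted 0.0119). Irf7 therefore fell by more than Irf9, by 1.28 on the log2 scale.

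Irf9 also fell less than Stat2, its ISGF3 partner. The log2 ratio of Irf9 to Stat2 was 0.50, 0.58, 0.45, 0.30 and 0.50 in co-cultured replicates 1 to 5 and 0.27, 0.22, 0.26, 0.14 and 0.34 in untreated replicates. Irf9 counts exceeded Stat2 counts in every library, and 4 of 5 co-cultured libraries lay above all untreated ones. The ratio averaged 0.46 ± 0.104 in co-cultured cells and 0.25 ± 0.0707 in untreated cells (difference 0.22, exact permutation p = 0.0159, adjusted 0.019). Irf1 to Irf2 averaged 0.33 ± 0.184 in co-cultured cells and 0.22 ± 0.145 in untreated cells (exact permutation p = 0.357). Here 4 co-cultured libraries lay above all untreated ones and replicate 5 fell among them at 0.01. Without it the difference was 0.19 in place of 0.11 (exact permutation p = 0.0159, unadjusted). That p is the smallest that 4 against 5 libraries can give, and it follows from leaving out the 1 co-cultured library that overlapped. It therefore does not test the ratio.

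**Figure D4:**
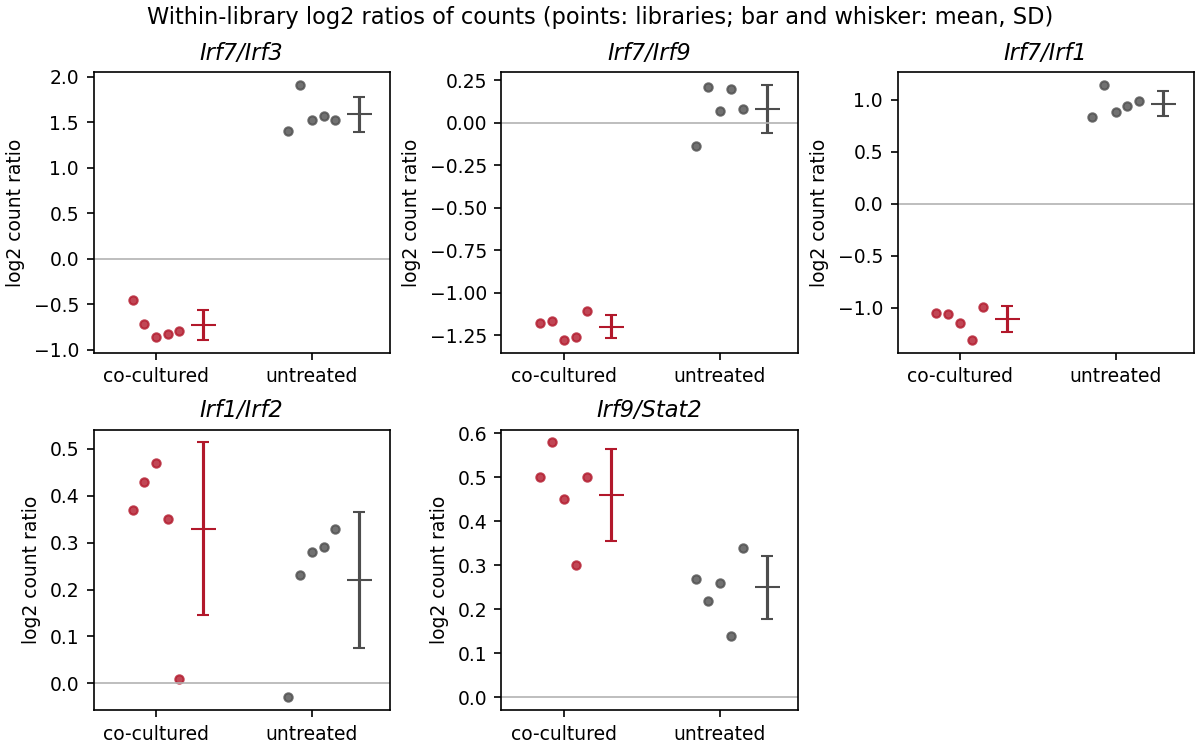
Log2 ratios of counts within each library for 5 of the 6 pairs tested; points are libraries, co-cultured on the left and untreated on the right of each panel, with the mean and SD as bars. The ratios of Irf7 to Irf3, Irf9 and Irf1 lie lower in co-cultured cells without overlap, and Irf9 to Stat2 averages 0.46 in co-cultured cells and 0.25 in untreated cells.

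Upstream of Irf3 and Irf7, some sensors of nucleic acids fell, and the kinases Tbk1 and Ikbke were not called. Of 24 sensors, adaptors and kinases 20 were tested, of which 0 rose and 7 fell, with a median log2 fold change of -0.11. Over all tested genes 17.4% rose and 16.1% fell. The nucleic acid sensor Zbp1 averaged 7.76 ± 0.908 CPM in co-cultured cells and 42.1 ± 5.81 CPM in untreated cells (log2 fold change -2.44, edgeR adjusted p = 6.8e-09). Dhx58 (LGP2) averaged 89.7 ± 6.62 CPM in co-cultured cells and 231 ± 17.0 CPM in untreated cells, a fall of 1.36, and Ifih1 (MDA5) fell by 1.04 on the log2 scale. Smaller falls were called for Tlr3 (-0.82), Ddx58 (RIG-I, -0.66), the adaptor Mavs (-0.28) and Azi2 (-0.24). The DNA sensor Mb21d1 (cGAS), its adaptor Tmem173 (STING) and the lipopolysaccharide receptor Tlr4 were not called, with log2 fold changes of -0.02, -0.07 and 0.11, and Tlr7 and Tlr9 were too low to be tested. Tbk1 and Ikbke, which phosphorylate Irf3 and Irf7, had log2 fold changes of -0.12 and -0.02 (edgeR adjusted p = 0.321 and 0.818).

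Interferon genes of types I, II and III, those of type I that Irf3 and Irf7 switch on included, were at or near 0 in these libraries. None of 19 interferon genes had enough counts to be tested, 14 were at 0 in all 10 libraries, Ifng among them, and 18 had at most 10 counts in all. Ifnb1 had 0 counts in co-cultured cells and 10 in untreated cells, of which 6 were in replicate 1 and 2 each in replicates 2 and 5. Set against the floor of 3 counts over the co-cultured group, the untreated level is 3.19-fold higher, from counts in 3 libraries. The counting error of the 10 untreated counts is not covered, so this is no firm bound, and the difference was not tested.

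Downstream, the receptor chains and Stat2 went different ways. All 11 genes of the interferon receptors and their signalling partners were tested, 3 rose and 3 fell, with a median log2 fold change of 0.02. The shares over all tested genes were 17.4% higher and 16.1% lower. Stat2 averaged 56.6 ± 4.98 CPM in co-cultured cells and 115 ± 7.15 CPM in untreated cells (edgeR adjusted p = 1.47e-07), with a log2 fold change of -1.03. The kinase Jak2 fell by 0.32, whereas the receptor chains Ifnar1, Ifngr1 and Ifngr2 had log2 rises of 0.18, 0.22 and 0.17.

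Of 30 ISRE-driven targets of ISGF3 and Irf7, all were tested, 0 rose and 28 fell, with a median log2 fold change of -1.57. Among all tested genes, 17.4% rose and 16.1% fell. Ifi27 and Trim25 were not called. Usp18, an inhibitor of type I interferon receptor signalling, averaged 46.3 ± 2.14 CPM in co-cultured cells and 154 ± 14.5 CPM in untreated cells (log2 fold change -1.73, edgeR adjusted p = 2e-09). Ifit3, an antiviral RNA-binding protein, averaged 7.66 ± 1.16 CPM in co-cultured cells and 106 ± 24.8 CPM in untreated cells, a fall of 3.78, and the ubiquitin-like protein Isg15 fell by 2.19 on the log2 scale. Compared with the factors, 7 of the 30 targets fell by more than Irf7 and 26 by more than Irf9. The summed level of the 30 targets ran from 1770 to 1900 CPM in co-cultured libraries and from 3870 to 4990 CPM in untreated libraries, with untreated replicate 2 the highest for both this sum and Irf7.

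Genes known as targets of Irf1 fell in the main although Irf1 itself was not called. Of 28 such genes 24 were tested, 2 rose and 15 fell, with a median log2 fold change of -0.35. Over all tested genes the shares were 17.4% higher and 16.1% lower. Gbp3 and Gbp2, interferon-inducible GTPases, fell by 1.79 and 1.19, and the chemokine Ccl5 fell by 1.43 on the log2 scale. Cxcl9 and Cxcl10, which attract T cells, fell by 1.65 and 1.60. The antigen processing genes Tap1, Psmb9 and Psmb8 fell by 0.82, 0.60 and 0.46, and Cd274, which encodes PD-L1, fell by 0.76. The adhesion molecule Vcam1 and the collagen cross-linking enzyme Lox went the other way, with rises of 0.59 and 3.27. Many of these genes also respond to other factors such as NF-kappaB, so the list does not isolate Irf1.

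Co-repressors and turnover factors of IRFs showed no common direction: all 18 were tested, 4 rose and 3 fell, with a median log2 fold change of -0.03. Over all tested genes 17.4% rose and 16.1% fell. The counts are near these shares and are by themselves no result about the list. Tnfaip3 (A20), a ubiquitin-editing inhibitor of NF-kappaB, averaged 20.8 ± 2.16 CPM in co-cultured cells and 9.66 ± 0.622 CPM in untreated cells (log2 fold change 1.11, edgeR adjusted p = 8.05e-07). Socs3, a feedback inhibitor of cytokine receptors, rose by 0.34, Irf2bp1, a co-repressor of Irf2, by 0.24 and Setdb1 by 0.16 on the log2 scale. Usp18, which is also among the ISRE targets, Tax1bp1 and Pias1 fell, the last of these by 0.22.

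**Figure D5:**
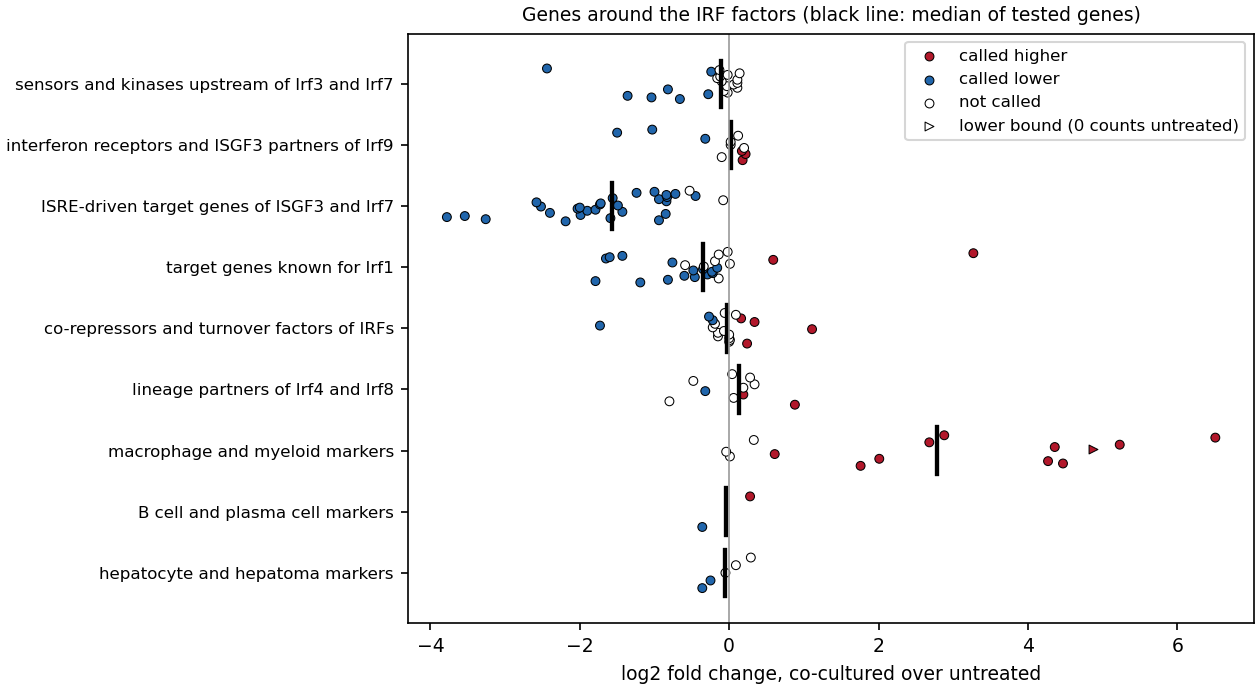
Log2 fold change, co-cultured over untreated, of the tested genes in 9 lists around the IRFs (all with more than 1 tested gene), coloured by call, with the list median as a black line; the triangle is the lower bound for Tyrobp, which had 0 counts in untreated cells. The ISRE-driven targets centre on -1.57 and the myeloid markers on 2.78, a median that the low-count filter in part sets. The sensors, receptors, co-repressors and lineage partners lie near 0 by median.

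The genes whose profile over the 10 libraries was most like that of Irf7 were Oas1a, Isg15 and Ifi27l2a, with root mean square differences from Irf7 of 0.11, 0.114 and 0.168 on the log2 scale, each gene centred on its untreated mean. The median over 10310 genes compared was 1.5. Oas1a averaged 17.2 ± 1.99 CPM in co-cultured cells and 68.2 ± 7.50 CPM in untreated cells, and Isg15 averaged 109 ± 13.3 CPM and 497 ± 54.5 CPM in the same order. For Irf9 the nearest were H2-T22, Cystm1 and Ifitm3, at 0.0662, 0.0803 and 0.0807 against a median of 0.601. H2-T22, a class I-like histocompatibility gene, averaged 306 ± 13.0 CPM in co-cultured cells and 531 ± 19.3 CPM in untreated cells. Oas and H2 genes have near-identical copies, so reads may have been split between them at counting. All 10 libraries enter this likeness, the difference between the groups included. The root mean square of the members themselves about their untreated means was 1.49 for Irf7 and 0.579 for Irf9, near the medians above. Those medians thus mostly reflect each member's own change between the groups, and a small difference shows mainly a similar fold change.

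Some members overlap other genes, and whether counting used strand is not given in the sources used here. Irf7 shares 45 bases with Phrf1 on the opposite strand, and the log2 fold change of Phrf1 was 0.39 (adjusted p = 0.00675 in edgeR), opposite in direction to Irf7. Irf5 shares 1045 bases with Tnpo3 on the opposite strand, which had a log2 fold change of 0.00 (edgeR adjusted p = 0.981). Irf1 shares 907 bases with Gm17334, which had 42 counts in all in co-cultured cells and 36 in untreated cells. The locus Gm20388 covers Irf8 on the same strand with 0 counts in all libraries.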

How the data were processed

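The deposited table gives gene counts and FPKM for 10 libraries, per the file headers. The authors' counts are whole numbers and not normalized. The deposited FPKM are these counts divided by a gene length and the library total, with lengths as described above. HISAT2 2.1.0, Bowtie2 2.2.5, RSEM 1.2.8 and mm10 are named in the submitters' processing notes, without roles. Libraries were made from 1.3 ug of total RNA with a VAHTS Universal V6 kit after PBS washes, per the labels' protocols. Depth was 12922263 to 17100662 counts a library, and floors of 3 counts cover only the counting error of the group at 0. Counts were filtered with filterByExpr, scaled by TMM and tested with the quasi-likelihood test in edgeR 4.0.16 (R 4.3.3) over all 12666 genes kept, with Benjamini-Hochberg adjustment, after a check on simulated data. DESeq2 1.42.0, limma 3.58.1 on log2(FPKM + 1) or log2(FPKM + 0.1), other scalings and filters, a replicate block and leaving out each library were alternatives. Ratios used log2 of counts with nothing added and exact permutation tests over 252 arrangements of the libraries (SciPy 1.17.1). Of the deposited identifiers, 98.6% were found in GENCODE M21. The members and all 11 gene lists were chosen with earlier results of these data known. Named genes are the members, Stat2, the 3 tested genes with the smallest p in each list, and for Irf7 and Irf9 the 3 most alike genes that averaged 5 CPM or more. Other list genes named, such as Ifnb1, Tbk1, Cxcl10 and Tyrobp, were chosen after their values were seen. Of the 6 ratios tested 1, and some genes of the lists, are not reported here.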

Additional observations from a re-analysis of the deposited data

Results flagged for a closer look

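In 4 of 88 groups of 5 libraries checked, 1 library stood apart from the other 4 by Dixon's criterion at the 95% level, where chance gives about 1 in 20. Irf1 had 62.8 CPM in co-cultured replicate 5 and 74.8 to 77.4 CPM in the other co-cultured libraries. The log2 ratio of Irf1 to Irf2 was 0.01 in the same library and 0.35 to 0.47 in the others. Untreated replicate 2 had 52.4 CPM of Zbp1, against 38.3 to 40.9 CPM in the other untreated libraries, and 148 CPM of Ifit3, against 87.7 to 105 CPM. Untreated replicate 2 was also the highest for Irf7, at 169 CPM, which did not stand apart by this criterion. The falls of Irf7 and Irf9 were called without any one of these libraries.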

How the results depend on the processing

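Irf7 and Irf9 were called lower under all 18 alternatives, with log2 fold changes of -2.17 to -1.88 and -0.84 to -0.72. The number of members called higher was 0 to 1 when a library was left out, because the call of Irf3 was lost in 4 of 10 such fits. Irf3 had edgeR adjusted p-values of 0.00888 to 0.0643 over these fits, and under the other 8 settings its adjusted p, from edgeR, DESeq2 or limma, was 0.00685 to 0.0463. Among the sensors, 1 gene was called higher without a low-count filter, and 0 to 1 when a library was left out. Of the lineage partners, 1 to 2 were called lower when a library was left out. The ratio of Irf1 to Irf2 differed by 0.04 to 0.19 when a library was left out. The cause of these shifts was not tested. All genes called numbered 3387 to 4391 over the settings, and library totals alone moved the median log2 fold change of all genes to 0.04.

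Libraries with the same number did not deviate together (correlations of -0.0986 to 0.0507), and 1 library correlated best with its own number. The numbers thus gave no sign of pairing, but an effect small beside the library spread would not show here. With the replicate block Irf7 and Irf9 stood at -2.09 and -0.81, and Irf3 had an edgeR adjusted p of 0.0463. Within numbers, the paired ratio differences were -2.32, -1.28 and -2.07 for Irf7 to Irf3, Irf9 and Irf1 and 0.22 for Irf9 to Stat2. Each had an exact sign-flip permutation p of 0.0625, the smallest that 5 pairs can give, so these differences could not pass the threshold there. The lengths used for levels were chosen after seeing the data, and they moved Irf7 to place 4 or 5 in co-cultured cells and to place 1 in untreated cells. Depth limits Irf4, for which a change was not detectable, and the interferon genes and Spi1, which the low-count filter left untested.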
